A study of Drosophila melanogaster with 40 samples.

Results

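*His4r* and *kis* were 2 of the 6524 transcripts measured across polysome gradients of *Drosophila melanogaster* embryos. The rows FBtr0082962 (*His4r*) and FBtr0078144 (*kis*) were chosen because, of the 8 rows that the gene table used here named, these were the histone and the chromatin remodeller. Their levels in the 4 pools of each gradient, and the translation index computed from those levels, are described over all 10 gradients.

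The study asked which maternal mRNAs are kept from translation by Smaug, a protein that binds RNA and acts in the early embryo. Whole embryos were collected 0 to 2 h after egg laying. They came from mothers homozygous for the *smaug1* mutation (3 gradients) or from W1118 mothers, the wild type (3 gradients), and both were lysed in a buffer that held cycloheximide. In a further experiment, lysate of embryos from *smaug1* mothers, made in another buffer, was divided and incubated with puromycin (2 gradients) or with cycloheximide (2 gradients). All 4 of these drug gradients are therefore *smaug*-mutant. Because the mutation was in the mothers, it acts on the maternal supply of Smaug. The samples were whole embryos, so the levels are averages over the embryo and do not tell its parts apart. No row carried the name of *smaug* or of a cell type marker, and the labels were not checked against such genes.

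A sucrose gradient separates mRNAs by the mass of the mRNA together with what it carries. mRNA free of ribosomes tends to stay near the top, and mRNA carrying many ribosomes moves toward the bottom. Pool 1 was the top 4 mL of the gradient, pool 2 the next 2 mL, pool 3 the next 3 mL and pool 4 the last 3 mL with the pellet. Puromycin is taken into the growing peptide and releases ribosomes that are translating, whereas cycloheximide holds them on the mRNA. A long coding region has room for more ribosomes than a short one.

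*His4r* encodes histone H4, a core protein of the nucleosome. The replication-dependent histone genes of *Drosophila* lie in a repeated cluster, and their mRNAs end in a stem-loop without a poly(A) tail. *His4r* lies outside the cluster, is expressed outside S phase and encodes the same H4 protein. The early embryo divides its nuclei rapidly and uses histones that the mother supplied. *kis* (kismet) encodes a very large ATP-dependent remodeller of the CHD family. It is a trithorax group gene, one of those that keep developmental genes active, and it affects segmentation and homeotic genes.

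Each pool gave 1 array in 1 colour, Cy3 or Cy5, so the series held 40 arrays. The median level of an array lay between 9.98 and 14.1 on the log2 scale, and the spread over rows between 1.06 and 2.03 (SD). Since arrays are few, their number limits the precision. Levels are log2 signals scaled to added spike-in RNA, and 1 log2 unit is a doubling of the signal. The level of one row is not set against that of the other, because their probes differ. The signal of the *His4r* row was near the bottom of the table, with 19 of 6524 rows lower on average (mean 8.24 on the log2 scale over 40 arrays). For *kis* the mean was 12.3 and 4154 rows were lower. The mRNAs of the histone cluster resemble *His4r* in their coding sequence. Whether they add to the signal of the *His4r* probes was not tested.

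*His4r* was highest in pool 2 in every gradient without puromycin. In *smaug*-mutant embryos its level in pool 2 was 10.48, 9.15 and 9.87 on the log2 scale, against 10.21, 9.55 and 9.72 in wild-type embryos. In the drug gradients pool 2 held 7.93 and 8.45 with puromycin, against 9.82 and 10.94 with cycloheximide. The 2 puromycin values were the lowest pool 2 levels of the 10 gradients.

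In pool 1, the free pool, the level of *His4r* was 7.03, 7.17 and 6.15 in *smaug*-mutant embryos, against 7.66, 6.68 and 6.16 in wild-type embryos. With puromycin it was 9.56 and 10.74, against 6.26 and 8.49 with cycloheximide. Puromycin thus gave the 2 highest values of pool 1, where 97.6% of all rows were higher on average with puromycin than with cycloheximide. In 84.2% of rows pool 1 was the highest pool in both puromycin gradients. In pool 3 the level was 9.79, 7.25 and 9.44 in *smaug*-mutant and 9.42, 7.27 and 9.33 in wild-type embryos. With puromycin it was 7.07 and 8.54, against 8.26 and 9.19 with cycloheximide. In both genotypes replicate 2 was the low one, by over 2 log2 units. In pool 4 the level was 8.95, 6.63 and 7.60 in *smaug*-mutant and 8.49, 6.74 and 7.53 in wild-type embryos, and 5.18 and 6.15 with puromycin, against 7.54 and 7.23 with cycloheximide.

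**Figure D1:**
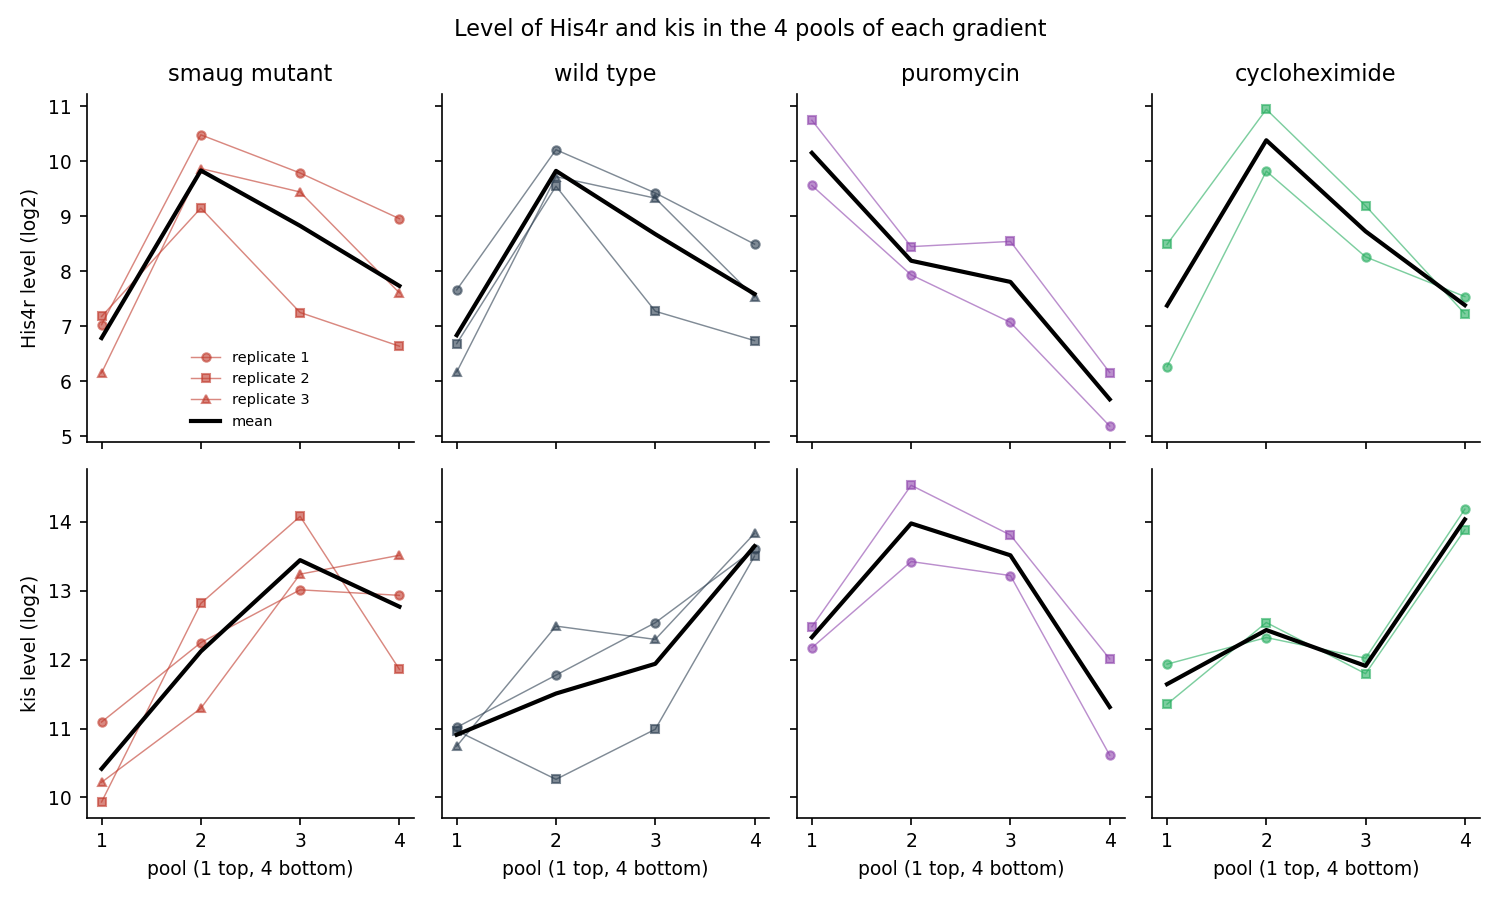
Log2 level of *His4r* (upper row) and *kis* (lower row) in pools 1 to 4 of each gradient, with 1 thin line per gradient and the group mean as a thick line; the columns are *smaug*-mutant embryos, wild-type embryos, puromycin and cycloheximide. *His4r* peaks in pool 2 in 8 gradients and in pool 1 in both puromycin gradients, whereas *kis* peaks in pool 4 in all wild-type and cycloheximide gradients and in pool 2 with puromycin.

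A peak in pool 2 was a rare pattern, but the patterns counted here follow the profile of *His4r* itself, so the counts are no test. Of 6524 rows, 12 (0.184%) were highest in pool 2 in all 8 gradients without puromycin, *His4r* among them, and 10 (0.153%) were in addition highest in pool 1 in both puromycin gradients, *His4r* again among them. Measured as the level in pool 2 minus the mean of the other pools, the excess of *His4r* was 2.05 ± 0.14 in *smaug*-mutant and 2.13 ± 0.49 in wild-type embryos (log2, SD, n = 3 each). It was 0.31 ± 0.49 with puromycin and 2.56 ± 0.13 with cycloheximide (n = 2 each). Within each of the 8 gradients without puromycin at least 97.7% of rows had a smaller excess. In the puromycin gradients 51.5% and 6.06% of rows did. By level, *His4r* ranked low, above 0.29, 11.8, 2.38 and 0.53% of rows on average in pools 1 to 4 of wild-type embryos. In *smaug*-mutant embryos it ranked above 0.60, 13.8, 3.06 and 0.90%. The SD over rows was 1.67 in pool 1 and 1.06 in pool 2 of wild-type replicate 1. In *smaug*-mutant replicate 2 these were 1.57 and 1.58. What low signal and unequal spread add to the excess was not tested.

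By group means the order of the pools was the same for *His4r* in *smaug*-mutant, wild-type and cycloheximide gradients, with pool 2 first, then pool 3, pool 4 and pool 1. In *smaug*-mutant replicate 2 and cycloheximide replicate 2, however, pool 1 lay above pool 4. In *smaug*-mutant embryos pool 2 exceeded pool 3 by 1.01 ± 0.78 and pool 3 exceeded pool 4 by 1.09 ± 0.65 (log2, SD within gradients, n = 3), in 3 of 3 gradients each. In wild-type embryos these steps were 1.15 ± 0.99 and 1.09 ± 0.65, also in 3 of 3 gradients. The step between pool 4 and pool 1 did not exceed its spread in *smaug*-mutant embryos (0.95 ± 1.31) or with cycloheximide (0.01 ± 1.79, n = 2), whereas in wild-type embryos it did (0.75 ± 0.66). With puromycin the order was pool 1, pool 2, pool 3 and pool 4, and the difference between pools 2 and 3 (0.38 ± 0.68) was within its spread.

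As shares of the linear signal summed over the 4 pools, pool 2 held 48.6, 58.9 and 49.3% of *His4r* in *smaug*-mutant embryos, against 48.7, 67.3 and 48.4% in wild-type embryos. Pools 3 and 4 together held 46.9, 26.1 and 46.9% in *smaug*-mutant and 43.0, 23.5 and 47.5% in wild-type embryos. The free pool held 4.43, 15.0 and 3.74% in *smaug*-mutant and 8.31, 9.23 and 4.12% in wild-type embryos. The ranges of the genotypes overlapped in each of these shares.

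**Figure D2:**
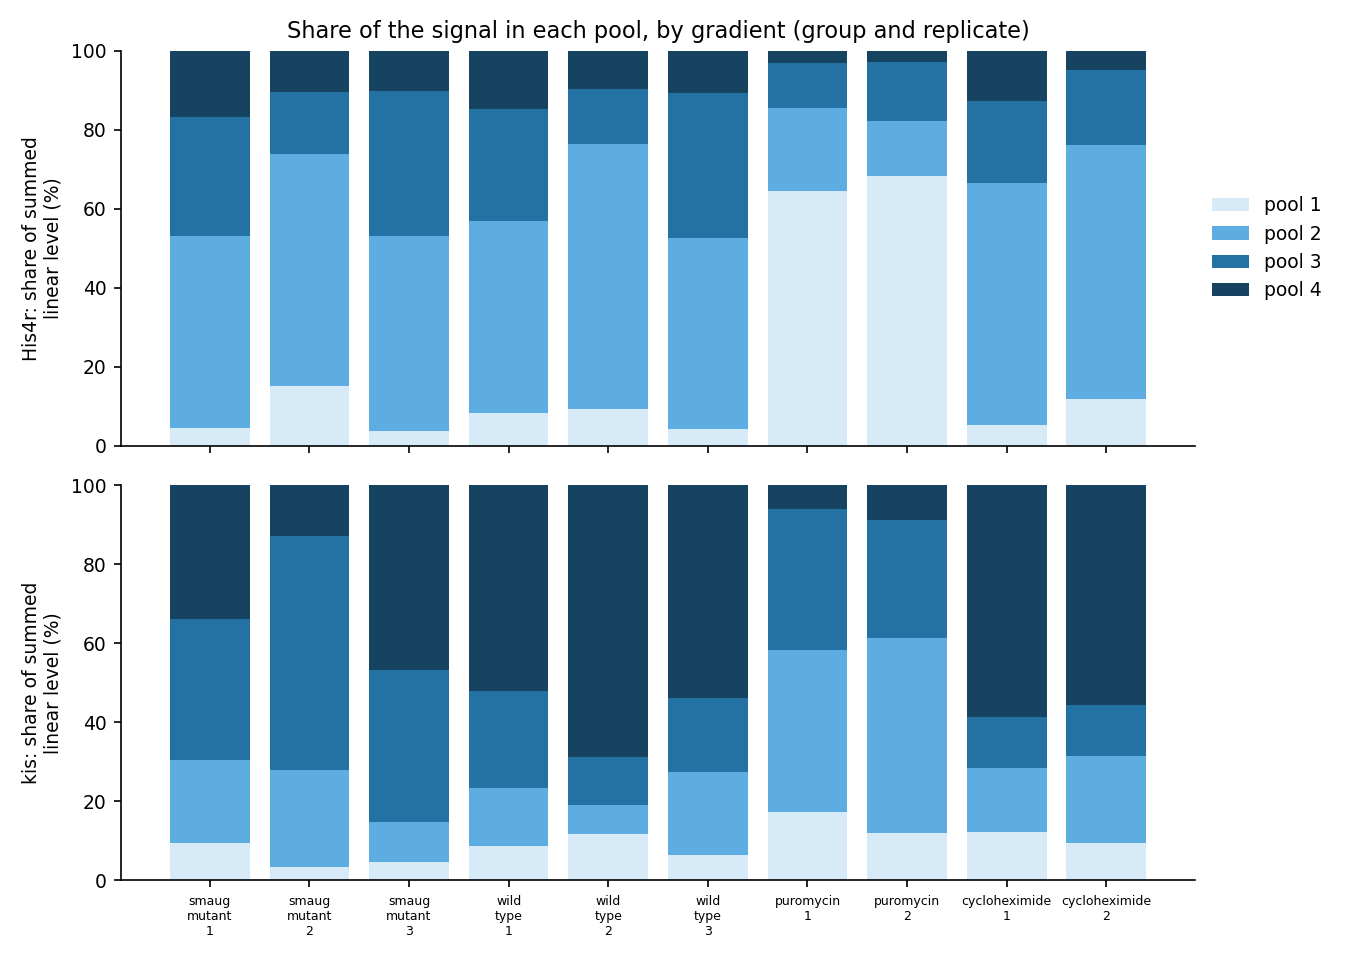
Share (%) of the linear signal of *His4r* (upper panel) and *kis* (lower panel) found in each pool, with 1 stacked bar per gradient labelled by group and replicate. The free pool holds 64.5 and 68.4% of *His4r* in the puromycin gradients, and pool 4 holds 5.87 and 8.63% of *kis* in the puromycin gradients, against 58.5 and 55.5% in the cycloheximide gradients.

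*kis* was placed lower in the gradient. In pool 4, the bottom of the gradient, its level was 12.93, 11.86 and 13.51 on the log2 scale in *smaug*-mutant embryos, against 13.60, 13.50 and 13.83 in wild-type embryos. In pool 3 it was 13.01, 14.08 and 13.24 in *smaug*-mutant embryos, against 12.53, 10.99 and 12.29 in wild-type embryos. The genotypes did not overlap in pool 3, where all *smaug*-mutant values were the higher ones. With each array's median subtracted, however, *smaug*-mutant replicate 3 (0.54) lay below wild-type replicate 1 (0.61). By group means 68.9% of all rows were higher in pool 3 of *smaug*-mutant embryos. How many did not overlap was not counted, so the separation is not read as particular to *kis*. In pool 4 the genotypes overlapped only through *smaug*-mutant replicate 3, which lay just above wild-type replicate 2.

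In pool 2 the level of *kis* was 12.24, 12.81 and 11.29 in *smaug*-mutant and 11.77, 10.26 and 12.48 in wild-type embryos. In pool 1 it was 11.09, 9.93 and 10.22 in *smaug*-mutant and 11.02, 10.97 and 10.74 in wild-type embryos. The ranges overlapped in both pools. With puromycin the levels in pools 1 to 4 of replicate 1 were 12.17, 13.42, 13.22 and 10.61, and those of replicate 2 were 12.47, 14.53, 13.80 and 12.01. With cycloheximide they were 11.93, 12.32, 12.02 and 14.18 in replicate 1, and 11.35, 12.54, 11.79 and 13.88 in replicate 2. Puromycin values lay above both cycloheximide values in pools 1, 2 and 3 and below both in pool 4.

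The pool with the highest level of *kis* was pool 4 in 3 of 3 wild-type and 2 of 2 cycloheximide gradients, pool 3 in 2 of 3 *smaug*-mutant gradients, and pool 2 in both puromycin gradients. A peak in pool 4 in all 5 wild-type and cycloheximide gradients was shared by 761 rows (11.7%). Of 6524 rows, 112 (1.72%) combined it with a peak in pool 2 in both puromycin gradients, as *kis* did. These patterns follow the profile of *kis* itself and leave out the *smaug*-mutant gradients, so the counts are no test. In wild-type embryos pool 4 exceeded pool 3 by 1.71 ± 0.74 (log2, SD, n = 3), in 3 of 3 gradients. The steps between pools 3 and 2 (0.43 ± 0.54) and between pools 2 and 1 (0.60 ± 1.23) were within their spread. In *smaug*-mutant embryos pools 3, 4 and 2 followed each other with steps smaller than the spread (0.67 ± 1.35 and 0.65 ± 1.59), and pool 2 exceeded pool 1 by 1.70 ± 1.02.

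The translation index (TI) was the mean log2 level of pools 3 and 4 minus the log2 level of pool 1. A positive TI means more signal in the polysomal pools than in the free pool. The study described pool 2 as mixed, with both free mRNA and mRNA on polysomes, and left it out of the TI. For *His4r* this leaves out the pool with its highest level in every gradient without puromycin. The TI of *His4r* was 2.35, -0.23 and 2.37 in *smaug*-mutant embryos, against 1.30, 0.32 and 2.26 in wild-type embryos. With puromycin it was -3.43 and -3.40, against 1.64 and -0.28 with cycloheximide. The genotypes overlapped, and the puromycin values lay below all others.

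The TI of *kis* was 1.88, 3.03 and 3.16 in *smaug*-mutant embryos, against 2.05, 1.28 and 2.32 in wild-type embryos. With puromycin it was -0.26 and 0.43, against 1.17 and 1.49 with cycloheximide. It was above 0 in 9 of 10 gradients, and the puromycin values were the lowest.

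The TI of all rows shifted between gradients, so it is also given as the share of rows with a lower TI in the same gradient. The median TI over all rows was -0.47, -0.19 and 1.77 in the *smaug*-mutant gradients and 0.09, -0.90 and -0.33 in the wild-type gradients. It was -3.06 and -3.12 with puromycin, against 0.52 and -0.64 with cycloheximide. *His4r* ranked above 90.3, 48.8 and 61.8% of rows in *smaug*-mutant embryos and above 74.6, 78.3 and 93.4% in wild-type embryos. *kis* ranked above 87.0, 96.7 and 74.1% of rows in *smaug*-mutant and above 84.3, 89.7 and 93.8% in wild-type embryos.

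**Figure D3:**
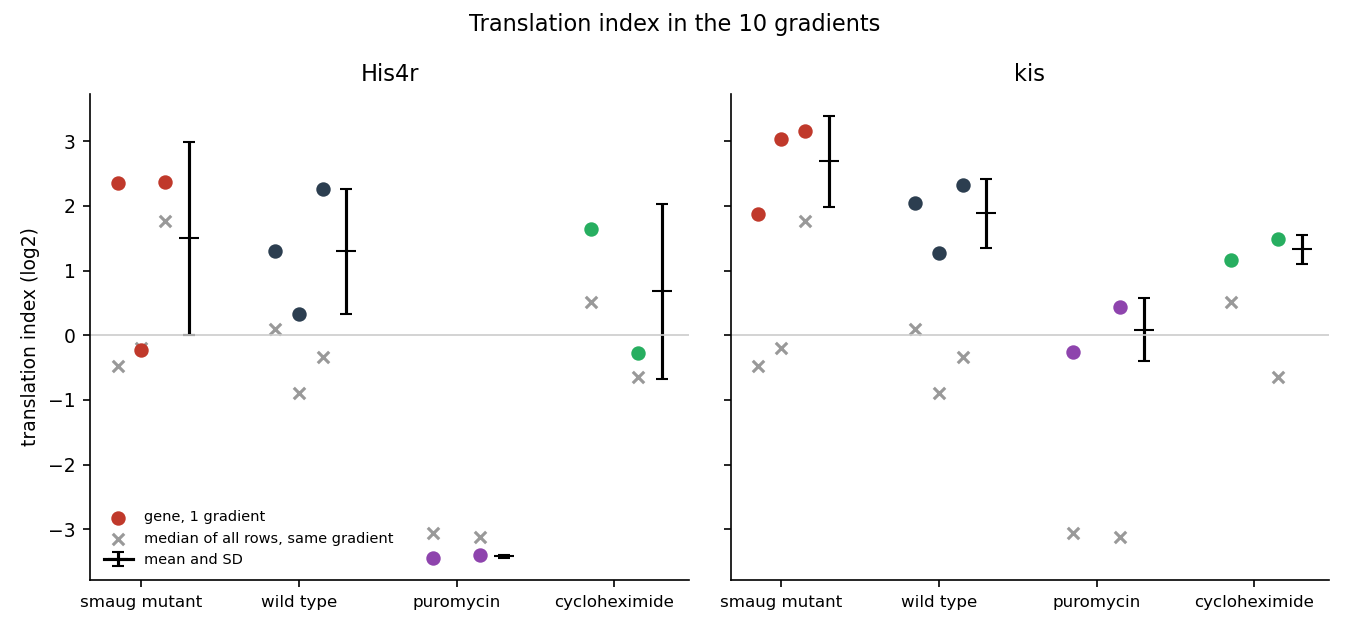
Translation index (log2) of *His4r* (left) and *kis* (right) in each gradient of the 4 groups; points are gradients, crosses the median of all rows in the same gradient, and the bar beside each group its mean with SD (n = 3, 3, 2 and 2). *kis* lies above the median of all rows in all 10 gradients, by 2.80 and 3.55 with puromycin, whereas *His4r* lies below it in 3 gradients, both puromycin gradients among them.

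The comparison of genotypes asks whether the position of these mRNAs in the gradient depended on maternal Smaug. In limma's test over all rows, neither TI passed the threshold. The TI of *His4r* was 1.50 ± 1.50 in *smaug*-mutant and 1.29 ± 0.97 in wild-type embryos (SD, n = 3 each), a difference of 0.20 (SE 1.06, 95% interval -1.92 to 2.33, limma adjusted p = 0.982). Centring each gradient on its median turned this difference to -0.55. For *kis* the TI was 2.69 ± 0.71 in *smaug*-mutant and 1.88 ± 0.54 in wild-type embryos, a difference of 0.81 (SE 1.03, interval -1.26 to 2.87, limma adjusted p = 0.894). It was 0.059 with centring and 0.09 with quantile normalisation within pools, and lay between 0.50 and 1.21 when 1 gradient was left out. The median difference over all rows was 0.65, and 55.4% of rows had a lower difference than *kis*. The test called 4 of 6524 rows (0.0613%). Before adjustment, 703 rows had a p under 0.05 with a higher and 13 with a lower TI in *smaug*-mutant embryos. SAM, the test that the methods of the study name, called 212 rows and neither of these.

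For the TI percentile the two-sided exact permutation test set 3 gradients against 3, which cannot give a p below 0.1. For *His4r* it averaged 67.0 ± 21.2 in *smaug*-mutant and 82.1 ± 9.99 in wild-type embryos (exact p = 0.3). For *kis* it averaged 85.9 ± 11.3 in *smaug*-mutant and 89.3 ± 4.76 in wild-type embryos (exact p = 0.8). The share of the signal of *His4r* in pools 3 and 4 differed by 2.00 percentage points (exact p = 0.7). For *kis* this share lay between 69.5 and 85.2% in *smaug*-mutant and between 72.4 and 80.8% in wild-type embryos, a difference of -1.09 percentage points (exact p = 0.8). These intervals are wide, and a p above the threshold does not show that the genotypes were alike.

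Pool by pool, the level of *His4r* differed between the genotypes by less than the standard error from limma. In pools 2 and 3 that error was the same for *kis*, since limma pooled the spread over all rows. In pool 3 the SD of *His4r* itself was 1.38 in *smaug*-mutant and 1.22 in wild-type embryos. The differences, *smaug* mutant minus wild type, for the 4 pools from top to bottom were -0.05, 0.007, 0.15 and 0.15 (SE 0.63 to 0.72), with limma adjusted p-values of 0.919 and above. Their signs changed when arrays were centred on their medians, in pools 1, 2 and 3. Over all rows the median differences were -0.83, 0.06, 0.37 and -0.61 for pools 1 to 4. In pool 1, 84.5% of rows had a lower difference than *His4r*, and in pool 4, 86.2% did. Of all rows, the test called 0% in pool 1 (8 higher and 490 lower before adjustment). It called 0.0613% in pool 2, 0.475% in pool 3, and for pool 4 it called 0.414%.

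For *kis* the level was compared in the same way. In pool 3 its level averaged 13.44 ± 0.56 in *smaug*-mutant and 11.94 ± 0.83 in wild-type embryos, a difference of 1.50 (SE 0.72, interval 0.08 to 2.92, limma adjusted p = 0.452), or 1.04 with centred arrays. In pool 4 it averaged 12.77 ± 0.84 in *smaug*-mutant and 13.64 ± 0.17 in wild-type embryos, a difference of -0.88 (SE 0.62, limma adjusted p = 0.449) that was -0.29 with centred arrays and lay between -1.25 and -0.42 when 1 gradient was left out. In pools 1 and 2 the differences were -0.49 (limma adjusted p = 0.708) and 0.61 (limma adjusted p = 1). The difference in pool 1 turned to 0.28 when arrays were centred, and that in pool 2 to -0.012 without wild-type replicate 2. None passed the threshold. Before adjustment, 591 rows were higher and 56 lower in pool 3 of *smaug*-mutant embryos, and 39 higher and 1020 lower in pool 4.

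The balance of pool 4 over pool 3 put both changes in 1 value. For *kis* this log2 ratio was -0.08, -2.22 and 0.27 in *smaug*-mutant embryos, against 1.07, 2.51 and 1.54 in wild-type embryos. The genotypes did not overlap. In how many other rows this was so was not counted, so it is not read as particular to *kis*. The difference was -2.38 (SE 0.72, interval -3.98 to -0.78), and it did not pass after adjustment over all rows (limma adjusted p = 0.145). With centred arrays it was -1.33 (limma adjusted p = 0.338). Of all rows, 0% passed, 1975 (30.3%) were lower and 7 higher in *smaug*-mutant embryos before adjustment, and the median difference was -0.999. *kis* was beyond that median, with 4.48% of rows lower. Without *smaug*-mutant replicate 2, the one with the lowest ratio, the difference was -1.61 (limma adjusted p = 0.315). For *His4r* the ratio was -0.83, -0.61 and -1.84 in *smaug*-mutant and -0.93, -0.53 and -1.80 in wild-type embryos, a difference of -0.004 (SE 0.57, limma adjusted p = 0.996) that was 1.05 with centred arrays.

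The same balance can be set beside the cycloheximide gradients, which were also *smaug*-mutant. In them the ratio of *kis* was 2.16 and 2.09, above all 3 ratios of the *smaug*-mutant gradients and within the range of the wild-type gradients. The cycloheximide gradients had another lysis buffer and an incubation, so that treatment and batch cannot be told apart. This difference was not tested.

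The summed level over the 4 pools, taken as the total signal of a gradient, was 10.77 ± 0.81 for *His4r* in *smaug*-mutant and 10.71 ± 0.57 in wild-type embryos (log2, SD, n = 3 each). For *kis* it was 14.65 ± 0.17 in *smaug*-mutant and 14.44 ± 0.35 in wild-type embryos. The differences of 0.06 (SE 0.48) and 0.21 (SE 0.39) did not pass (limma adjusted p = 0.999 and 0.996), and limma called 0.0766% of rows.

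The drug gradients ask whether an mRNA reached the lower pools because it was being translated. For *His4r* the TI fell to -3.42 ± 0.03 with puromycin, against 0.68 ± 1.36 with cycloheximide (SD, n = 2 each). The difference was -4.10 (SE 0.81, interval -5.99 to -2.20, limma adjusted p = 0.00445). Nearly all rows moved this way. The test called 80.3% of rows, 5240 lower and 1 higher, and the median difference was -3.00. *His4r* stood beyond that median, but 25.7% of rows had a lower difference, and with the median TI of each gradient subtracted the difference was -1.07 (limma adjusted p = 0.158). With centring, 488 rows were lower and 162 higher. *His4r* ranked above 32.7 and 34.3% of rows with puromycin, against 75.7 and 60.9% with cycloheximide. These ranks do not overlap, but 2 against 2 gradients cannot give a p below 0.33 in the exact permutation test, which was the value found.

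The fall of *His4r* in pool 2 ran against that of most rows. Its level there was 8.19 ± 0.36 with puromycin and 10.38 ± 0.80 with cycloheximide, a difference of -2.19 (SE 0.59, limma adjusted p = 0.0019). In this pool limma gave *His4r* and *kis* the same SE, from a spread pooled over all rows. The p-values of limma here therefore do not measure the replicate spread of either row. The test called 27.9% of rows in pool 2, of which 1536 were higher and 287 lower with puromycin (1511 higher and 1459 lower with centred arrays). The median difference was 0.83, and 1.61% of rows had a lower difference than *His4r*. With centred arrays its difference was -3.02 (limma adjusted p = 1.63e-06). It no longer passed without cycloheximide replicate 1 (-2.76, limma adjusted p = 0.0929) or replicate 2 (-1.63, limma adjusted p = 0.39), nor with a spread shared over the pools (limma adjusted p = 0.0584). Here and below, leaving out a gradient leaves its drug with 1, which is assumed to vary like the gradients of the other drug, so such p-values say little about stability.

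In pool 1 *His4r* averaged 10.15 ± 0.84 with puromycin and 7.37 ± 1.57 with cycloheximide. The difference of 2.78 (SE 0.92, interval 0.45 to 5.11) did not pass after adjustment (limma adjusted p = 0.136). No row did (0%), although 1884 rows were higher and 1 lower before adjustment, and the median difference was 1.27. *His4r* passed with a spread shared over the pools (limma adjusted p = 0.0169, 2426 rows called) and with the replicate number as a block (limma adjusted p = 0.00181, 3957 rows called). Each lysate was divided between the drugs, but whether its portions share a number is not stated, and same-numbered gradients carry opposite dyes. Without cycloheximide replicate 2, in which pool 1 held the higher level, the difference was 3.89 (limma adjusted p = 5.84e-06). As a share of the signal, the free pool held 64.5 and 68.4% of *His4r* with puromycin, against 5.21 and 11.7% with cycloheximide.

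In pool 3 the difference of *His4r* was -0.92 (SE 0.43, limma adjusted p = 0.0847), beside a median of -0.80, with 63.3% of rows called. It was -0.04 with centred arrays. Without puromycin replicate 1 it was -0.18, and it passed without puromycin replicate 2 (-1.66, limma adjusted p = 1.65e-05) or cycloheximide replicate 1 (-1.38, limma adjusted p = 0.0091). In pool 4 its level fell by 1.71 (SE 0.46, limma adjusted p = 0.0263), less than the median of -2.52, with 89.6% of rows called. With centred arrays the difference was 0.62. The signal of *His4r* there was among the lowest, above 0.39% of rows on average with cycloheximide and 0.31% with puromycin. Whether this limited the fall was not tested. Without cycloheximide replicate 1 or replicate 2 the fall in pool 4 did not pass (-1.56 and -1.87, limma adjusted p = 0.166 and 0.12). The log2 ratio of pool 4 to pool 3 was -2.14 ± 0.35 with puromycin and -1.34 ± 0.88 with cycloheximide, a difference of -0.79 (limma adjusted p = 0.255), where 52.8% of rows were called. This difference was 0.66 with centred arrays.

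**Figure D4:**
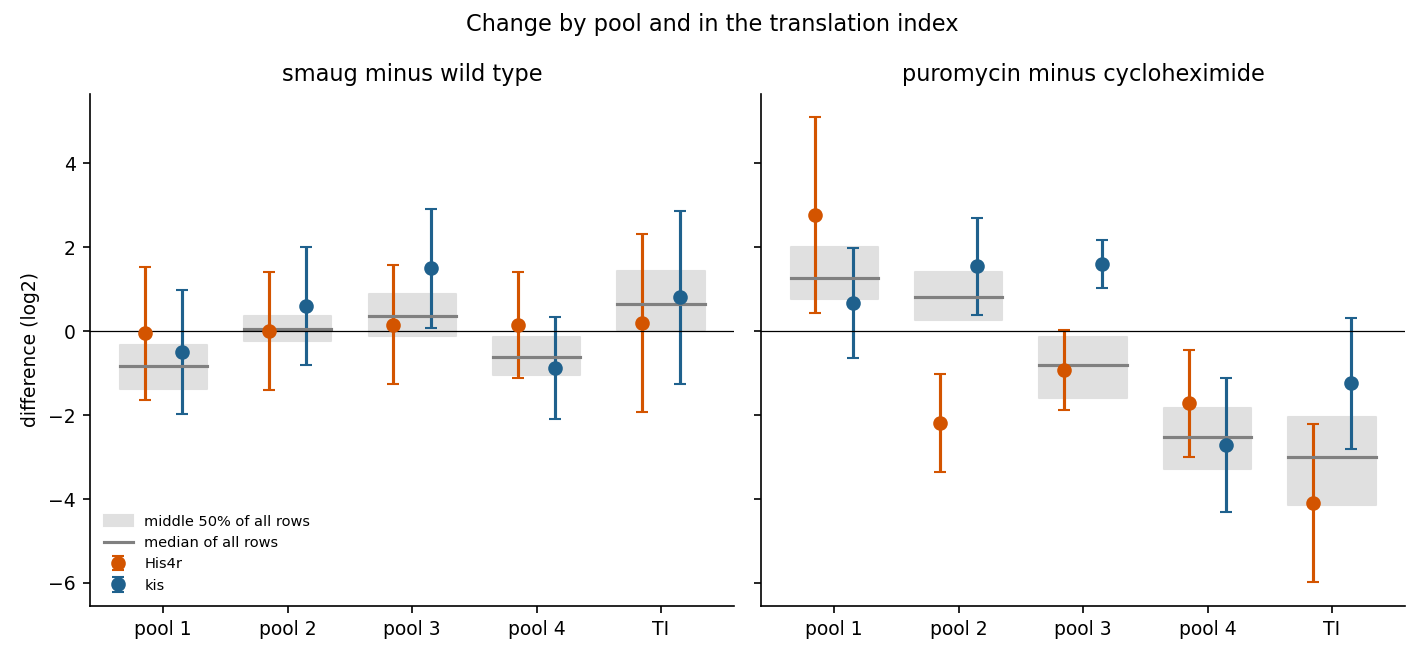
Difference (log2) in the level of each pool and in the translation index for *smaug* mutant minus wild type (left) and puromycin minus cycloheximide (right); points are *His4r* and *kis* with the 95% interval of limma, grey lines the median of all rows and grey bars the range between the quartiles of all rows. With puromycin, *His4r* in pool 2 (-2.19) and *kis* in pool 3 (1.60) lie outside the grey bars and differ in sign from the median of all rows, and both keep their sign with centred arrays.

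*kis* stayed in the upper part of the TI ranking with puromycin. Its TI was 0.09 ± 0.49 with puromycin and 1.33 ± 0.23 with cycloheximide, and the difference of -1.24 (SE 0.67, interval -2.80 to 0.33) did not pass (limma adjusted p = 0.115). With the median TI of each gradient subtracted, this difference turned to 1.79 (limma adjusted p = 0.116). In 92.7% of rows the difference was lower than that of *kis*. It ranked above 98.8 and 99.8% of rows with puromycin, against 65.7 and 92.7% with cycloheximide.

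With puromycin *kis* was lower in pool 4 and higher in pools 3 and 2. In pool 4 its level was 11.31 ± 0.99 with puromycin and 14.03 ± 0.21 with cycloheximide, so that it fell by 2.72 on the log2 scale (SE 0.58, limma adjusted p = 0.0151), beside a median of -2.52, and the difference came to -0.38 with centred arrays (limma adjusted p = 0.465). In pool 3 it rose to 13.51 ± 0.42 with puromycin, against 11.91 ± 0.16 with cycloheximide. This difference of 1.60 (SE 0.26, interval 1.04 to 2.17, limma adjusted p = 2.39e-04) ranked 28 from the top of 6524 rows, 367 of which passed as higher and 3763 as lower. With 1 gradient left out the difference lay between 1.31 and 1.90, and with centred arrays it came to 2.49.

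In pool 2 *kis* rose to 13.97 ± 0.78 with puromycin, against 12.43 ± 0.15 with cycloheximide (difference 1.55, SE 0.59, limma adjusted p = 0.0358). As for *His4r* in this pool, the SE came from a spread pooled over all rows. The difference was 0.72 with centred arrays (limma adjusted p = 0.023), and it did not pass with a shared spread (limma adjusted p = 0.0513) or with dye as a term (limma adjusted p = 0.0572). In pool 1 the difference was 0.68 (limma adjusted p = 0.332), which turned to -0.69 with centred arrays. The log2 ratio of pool 4 to pool 3 was -2.60 and -1.80 with puromycin, against 2.16 and 2.09 with cycloheximide. It fell by 4.33 on the log2 scale (SE 0.38, limma adjusted p = 0.0105), and 4.38% of rows had a lower difference. Pool 4 held 5.87 and 8.63% of the signal of *kis* with puromycin, against 58.5 and 55.5% with cycloheximide, and pool 2 held 41.1 and 49.5% against 16.1 and 21.8%. Without cycloheximide replicate 1 or replicate 2, the calls in pool 2 (limma adjusted p = 0.478 and 0.381), in pool 4 (0.113 and 0.0912) and in the ratio (0.147 and 0.137) no longer passed, while each value kept its sign.

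The summed level over the pools did not differ between the drugs at this precision. It was 10.74 ± 0.78 for *His4r* with puromycin and 11.05 ± 0.75 with cycloheximide, and 15.12 ± 0.59 for *kis* with puromycin and 14.84 ± 0.16 with cycloheximide. The differences were -0.31 for *His4r* and 0.28 for *kis* (limma adjusted p = 0.999 each). The SE of 0.45 was the same for both rows, since limma pooled the spread over all rows. The test called 0% of rows, and before adjustment 86 were higher and 10 lower.

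The TIs of both rows were set against each other within a gradient. A shift common to all rows cancels there, but a difference in spread between arrays does not. *His4r* minus *kis* was 0.47, -3.27 and -0.78 in *smaug*-mutant gradients and -0.75, -0.95 and -0.05 in wild-type gradients. The TI of *His4r* was the lower in 5 of these 6 gradients, by 0.89 ± 1.28 on average, which was within the spread (exact two-sided sign-flip permutation test, p = 0.0938, smallest possible 0.031). With puromycin the difference was -3.18 and -3.83, against 0.47 and -1.76 with cycloheximide. The puromycin values lay below both cycloheximide values, and the difference between the drugs was -2.86 (exact permutation p = 0.33, the smallest 2 against 2 can give). Between genotypes it was -0.61 (exact permutation p = 0.8).

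Each gradient was labelled with 1 dye, so the TI differences were also taken within dye. For *His4r* the difference between *smaug*-mutant and wild-type embryos was -0.23 among Cy3 gradients (2 against 1) and 1.05 among Cy5 gradients (1 against 2). For *kis* it was 1.04 among Cy3 and 0.08 among Cy5 gradients. Between puromycin and cycloheximide it was -3.16 (Cy3) and -5.04 (Cy5) for *His4r*, and -1.74 (Cy3) and -0.74 (Cy5) for *kis*, with 1 gradient against 1. The sign for *His4r* between genotypes changed with the dye, and the others did not.

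The patterns of the rows over all arrays were compared with each other and with those of the other rows. After each array's median was subtracted, the levels of *His4r* and *kis* over the 40 arrays correlated with a Pearson r of 0.18, a description over arrays that share gradients, dyes and scaling. The row most like *His4r* was FBtr0072814 (r = 0.82), and the row most like *kis* was FBtr0078121 (r = 0.88), neither of which the gene table named. The median r over the other 6523 rows was 0.05 for *His4r* and -0.004 for *kis*. Of the other named rows, alpha-Spec, a spectrin of the membrane skeleton, had r = 0.68 with *kis* and 0.17 with *His4r*. *mio*, a subunit of the GATOR2 complex of nutrient signalling, had r = 0.58 with *kis* and 0.13 with *His4r*. The remaining rows with a name, *sle*, *Wdr24*, *Uba1* and *Dyrk3*, had r between -0.29 and 0.40 with *kis* and between 0.05 and 0.17 with *His4r*.

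Other chromatin genes were looked for by symbol. Of 11 core and variant histone genes, 1 was named, which was *His4r*. Of 17 genes for remodellers of the CHD, SWI/SNF, ISWI and INO80 families, 1 was named, which was *kis*, and of 15 further trithorax and Polycomb group genes, 0 were. With so few members named, no count over these lists was made, and the other genes were not analysed here.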

How the data were processed

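RNA of 4 pools from each of 10 polysome gradients was hybridised to custom NimbleGen arrays in 1 colour. The deposited values are log2 signals, 1 per transcript and array. The authors normalised them by the quantile step of RMA and then scaled each array linearly to Arabidopsis spike-in RNA, and they kept only transcripts detected in both genotypes. No source states the log base, which is read as 2 since RMA works on that scale. The genome build and annotation release are not given in the sources used here, so no coordinates are printed. Gene symbols came from a RefSeq gene table, which named 8 of 6524 rows.

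Groups and replicate numbers came from the sample labels. The TI, each pool's level, the ratio of pool 4 to pool 3 and the summed linear level were compared with limma 3.58.1 (lmFit, eBayes) in R 4.3.3, each pool by itself, with Benjamini-Hochberg adjustment over all 6524 rows and a threshold of 0.05. Shares, percentiles and the difference between the rows were compared by exact permutation (numpy 2.4.6). The limma fits, and SAM on the TI, were tested on simulated data with added changes. The permutation tests were not part of this. All columns were used. The rows, gene lists and alternatives were chosen with earlier results of these data known. Both rows are given in every comparison whatever their values, and for likeness the nearest row of each and the other named rows. The labels call the replicates biological. Alternatives covered the scaling of arrays, the pools and mean in the TI, low rows, dye, the variance model, pairing by replicate number and leaving out each gradient.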

Additional observations from a re-analysis of the deposited data

How the results depend on the processing

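With each gradient or array centred on its median, *His4r* TI differed by -0.55 between *smaug*-mutant and wild-type embryos (-0.38 with quantile normalisation within pools), and by -1.07 between puromycin and cycloheximide (-1.28), no longer past the threshold. *kis* TI, puromycin minus cycloheximide, turned to 1.79 (2.32 with quantile normalisation). Centring also reversed, between genotypes, *His4r* in pools 1, 2 and 3 (0.72, -0.10 and -0.31) and its ratio of pool 4 to pool 3 (1.05, and 0.022 with dye as a term) and *kis* in pool 1 (0.28). Between drugs it reversed *kis* in pool 1 (-0.69), *His4r* in pool 4 (0.62) and in the ratio (0.66), and the share in pools 3 and 4 (27.2 percentage points for *His4r* and 7.87 for *kis*). For the definition of the TI, pool 4 alone gave -0.38 for *kis* between genotypes and -3.40 between drugs, pool 3 alone gave 0.92 between drugs and 2.17 points for the *kis* percentile between genotypes, and pool 2 in the denominator gave -1.67 between drugs, with -3.40 and -1.67 past the threshold. Rows called for TI between genotypes, 4 as reported, were 0 with centring, quantile normalisation or all gradients in 1 fit, 20 with the arithmetic mean, 382 with pool 3 alone, 2 with pool 4 alone, 13 with pool 2 in the denominator, 48 without the lowest 25% of rows (which left out *His4r*), 10 with trend and robust, 135 with the replicate block and 212 with SAM. Between drugs, 5241 as reported, they were 650 with centring, 1156 with quantile normalisation and 3101 with pool 3 alone. Leaving out 1 gradient gave 0 to 130 rows between genotypes and 2496 to 6078 between drugs. It moved *His4r* between genotypes from -0.29 to 1.07 in TI, -0.39 to 0.36, -0.32 to 0.35, -0.55 to 0.94 and -0.47 to 0.69 in pools 1 to 4, -0.36 to 0.37 in the ratio, -0.31 to 0.49 in the summed level and -5.25 to 8.95 points in the share. For *kis* it gave -0.012 to 1.10 in pool 2, -5.92 to 1.93 points in the share and -8.71 to 2.60 in the percentile. Between drugs the summed level ranged from -0.86 to 0.24 for *His4r* and -0.14 to 0.70 for *kis*. Rows called for the other measures also moved by over 1.5 times under some setting. With all gradients kept, between genotypes pool 1 gave 0 to 5 (0 as reported), pool 2 gave 0 to 1 (4), pool 3 gave 0 to 84 (31), pool 4 gave 3 to 1151 (27) and the summed level gave 0 to 138 (5). Between drugs pool 1 gave 0 to 3957 (0), pool 2 gave up to 2970 (1823), pool 3 down to 1724 (4130), and with centring pool 4 gave 0 (5846) and the ratio 1624 (3443). Without 1 gradient, pool 4 between genotypes gave 6 to 1212, and between drugs pool 1 gave 0 to 3310, pool 2 gave 129 to 5355, pool 4 gave 0 to 6372 and the ratio 0 to 5231. Same-numbered gradients deviated together with correlations of 0.26, 0.45 and -0.05 between the genotypes, so these were not treated as paired. The methods divided each lysate between the drugs, but no source says that the portions share a number (correlation 0.46), so these were not paired either. With the replicate block, *His4r* between drugs passed in pool 1 (adjusted p = 0.00181 in limma) and pool 3 (0.00905). No other call on *His4r* or *kis* changed under the block. The difference of the TIs within a gradient reached p = 0.031 in the exact sign-flip permutation test with pool 2 in the denominator (-1.82). The causes were not tested.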
